A study of Rattus norvegicus with 4 samples.

Results

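The genes of the Polycomb repressive complex PRC2 and of the WDR5-MLL complex, which write histone H3 lysine marks on chromatin, were followed by RNA-seq in rat Schwann cells (SCs). The 10 genes were chosen by function and looked up by symbol in the counts table: Ezh1, Ezh2, Eed, Suz12, Jarid2, Rbbp4 and Rbbp7 for PRC2, and Wdr5, Kmt2a and Ash2l for WDR5-MLL. Of the 10, 7 had a row among the 17949 genes of the table, and all 7 passed the filter on low counts (at least 10 counts in at least 2 samples), as did 12446 genes in all. Suz12, Jarid2 and Kmt2a had no row under their symbol or a synonym and were not analysed here, so the PRC2 scaffold SUZ12 and the MLL methyltransferase itself are missing from what follows.

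The SCs, the glia that wrap peripheral axons, came from rat sciatic nerve and were grown with forskolin and heregulin. They were infected for 48 h with a lentivirus expressing the promoter antisense RNA of Egr2 (Lenti-AS, n = 2) or with a control lentivirus carrying GFP (Lenti-GFP, n = 2). Both groups therefore carried a virus and received polybrene, but the vector of the Egr2-AS encodes a red reporter protein, and the groups differ in that as well as in the antisense RNA. The labels call the samples biological replicates and do not say whether they came from separate animals. The p-values below therefore set the difference between groups against the variation between these samples, and need not hold for other animals.

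PRC2 places methyl groups on lysine 27 of histone H3 (H3K27me3), a mark of silenced promoters. EZH2 and EZH1 are its alternative catalytic subunits, EED reads the mark and activates the enzyme, and RBBP4 and RBBP7 are histone-binding subunits that also serve in deacetylase and chromatin assembly complexes. WDR5 and ASH2L belong to the core that MLL enzymes need to methylate lysine 4 (H3K4me3), a mark of active promoters. In SCs, PRC2 is known for keeping injury genes silent in intact nerve, and the study examined EZH2 and WDR5 as proteins bound by the Egr2-AS. The question asked of the counts was whether the mRNA level of these enzymes and their partners differed between Lenti-AS and Lenti-GFP SCs.

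Total counts per sample lay between 74024323 and 96185890. Values are given as CPM, the counts of a gene scaled to a common library size, on library sizes scaled by TMM, a method that sets the bulk of genes equal between samples (factors from 0.986 to 1.02). The groups were tested with edgeR's quasi-likelihood method, with Benjamini-Hochberg adjustment over the 12446 genes, and a call needed both an adjusted p below 0.05 and a change of 1.3-fold or more. With 2 samples in each group, the smallest two-sided p of an exact permutation test of 1 gene is 0.333. The SC markers S100b, Erbb3 and Ngfr had 42214 counts or more in every sample. Sox10, the defining SC factor, had 163 CPM in Lenti-AS 1 and between 61.2 and 77.1 CPM in the other samples, and the 13 tested SC markers, of which Mbp was called higher in Lenti-AS, summed to between 10230 and 11820 CPM. The 5 tested fibroblast markers summed to 4264 and 3818 CPM in Lenti-GFP and to 4678 and 2819 CPM in Lenti-AS. Nearly all of it came from the collagen genes Col1a1, Col1a2 and Col3a1. Col1a1 had 2131 CPM in Lenti-AS 1 and 290 CPM in Lenti-AS 2, and Col3a1 was below both controls in both Lenti-AS samples. Dcn, Lum, Thy1 and Dpt had 0 to 3 counts in any sample, but Pdgfra had 288 to 386 counts and Pi16 383 to 476. The 4 tested macrophage and leukocyte markers of 11 summed to between 3.63 and 4.58 CPM in each sample. Among the 6 tested endothelial and mural markers, which summed to between 244 and 299 CPM, Pdgfrb held most of the level. Globin transcripts were high in Lenti-AS 2 alone, where the tested erythroid markers summed to 3003 CPM against 5.24 to 8.55 CPM in the other samples. That level came from the globin genes Hbb, Hba-a1, Hbb-b1, Hbz and Hbe1. The other erythroid markers showed no such rise: Alas2, Klf1, Epor and Ahsp had 64, 68, 18 and 4 counts in Lenti-AS 2. In Lenti-AS 1 they had 58, 92, 20 and 2 counts. Leaving out the erythroid genes can reach other genes only through the scaling and the shared variance estimate. In that fit the 7 writer genes kept the direction of their fitted change, which cannot show whether their values depend on Lenti-AS 2. The part of the other markers in the results was not tested. In such bulk samples, fewer cells of a type and less RNA per cell cannot be told apart.

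Between the groups 0 of the 7 genes were called, where 1.98% of all genes tested were called. DESeq2, limma-voom and the likelihood ratio test also called 0 of the 7, against 5.04%, 1.89% and 4.19% of all genes. Without the limit on the fold change 0 of the 7 passed by edgeR's quasi-likelihood test, against 2.18% of all genes. With no adjustment, 1 gene of the 7, Eed, had p below 0.05, against 21.8% of all genes. The fitted log2 fold changes ran from -0.25 for Eed to 0.073 for Ezh1, with a median of 0.039 beside a median of 0.0071 over all genes tested. Fitted values were below 0 for 3 of the 7 and for 48.7% of all genes. For 5 of the 7, Ezh1, Ezh2, Rbbp4, Rbbp7 and Ash2l, the whole 95% interval lay inside a 1.3-fold change either way, which held for 44.4% of all genes tested. For Eed and Wdr5 the lower end of the interval passed that limit.

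**Figure D1:**
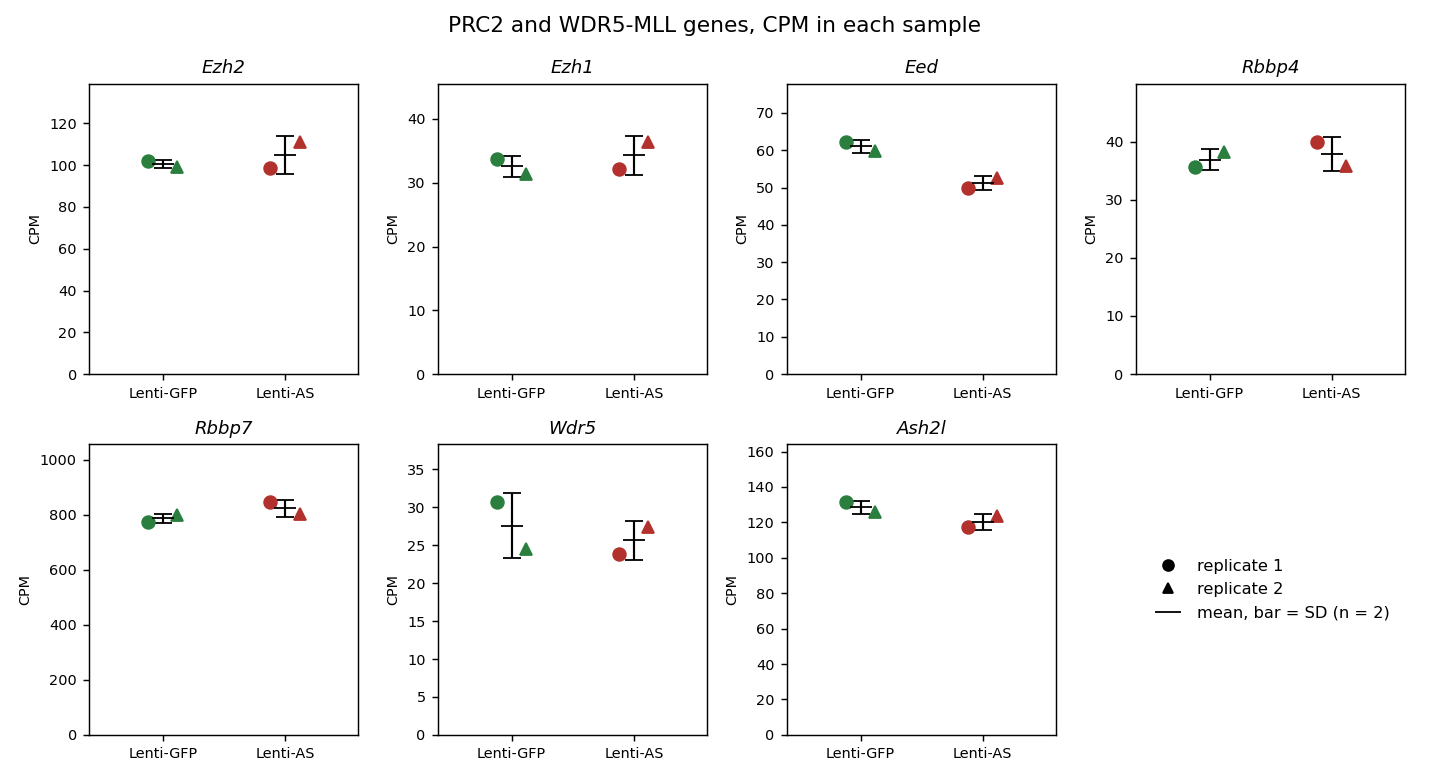
CPM (TMM-scaled counts, y axis from 0) of the 7 writer genes in each sample, by group (x axis); circles are replicate 1, triangles replicate 2, and the black line and bar the mean and SD (n = 2). Eed is the gene whose Lenti-AS samples (50.0 and 52.6 CPM) lie farthest below its Lenti-GFP samples (62.3 and 59.9 CPM) relative to the spread within groups, while the groups overlap for Ezh2, Ezh1, Rbbp4 and Wdr5.

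Ezh2, the catalytic subunit that prevails in dividing cells, had 102 and 99.3 CPM in Lenti-GFP and 98.5 and 111 CPM in Lenti-AS. Lenti-AS 2 was the highest and Lenti-AS 1 the lowest of the 4, so the Lenti-AS samples enclosed both controls. The fitted log2 fold change was 0.060 (95% interval -0.13 to 0.25, standard error 0.076, adjusted p = 0.679 by edgeR's quasi-likelihood test). It turned to -0.030 without Lenti-AS 2, the sample with the globin transcripts, and was 0.14 without Lenti-AS 1.

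Ezh1, the paralog known for a larger part in cells that have left the cycle, had 33.7 and 31.4 CPM in Lenti-GFP and 32.1 and 36.4 CPM in Lenti-AS. The groups overlapped here too, and Lenti-AS 2 was again the highest sample. The log2 fold change was 0.073 (95% interval -0.14 to 0.28, adjusted p = 0.654). It was -0.020 without Lenti-AS 2 and 0.16 without Lenti-AS 1. The balance of both enzymes hardly moved. Ezh2 had 3.02 and 3.16 counts for each count of Ezh1 in the Lenti-GFP samples and 3.07 and 3.05 in the Lenti-AS samples. These ratios are taken within a sample and so do not depend on the scaling between samples, but they are not corrected for transcript length and do not give the ratio of molecules.

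Eed encodes the subunit that binds H3K27me3 and couples it to enzyme activity. Its level was 62.3 and 59.9 CPM in Lenti-GFP (5815 and 5674 counts) but 50.0 and 52.6 CPM in Lenti-AS (4378 and 3954 counts). The Lenti-AS samples were both below the controls, by a gap of 7.26 CPM, against 2.43 CPM within Lenti-GFP and 2.65 CPM within Lenti-AS. The Lenti-GFP mean was 61.1 ± 1.72 CPM (SD, n = 2). The mean of Lenti-AS was 51.3 ± 1.87 CPM (SD, n = 2). The log2 fold change was -0.25 (standard error 0.070, 95% interval -0.42 to -0.080), a level 1.19-fold lower, unadjusted p = 0.0117, adjusted p = 0.125 by edgeR's quasi-likelihood test. By p-value Eed ranked 1160 among the 12446 genes. DESeq2 gave an adjusted p = 0.0215 at the same log2 fold change of -0.25, a fold change below the 1.3 needed for a call, and the other tests, scalings, filters and the replicate block gave adjusted p-values from 0.103 to 0.366. The direction was the same in each fit that left out 1 sample, with log2 fold changes from -0.29 to -0.22. Adjusted p-values were 0.574 without Lenti-GFP 1 and 0.669 without Lenti-GFP 2, but 0.0235 without Lenti-AS 1 and 0.00173 without Lenti-AS 2, fits in which the lone sample of a group is assumed to vary like the other group. Eed was called in none of these 4 fits, since its change stayed below 1.3-fold.

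Because PRC2 assembles from both proteins, the counts of Ezh2 and Eed were also set against each other within samples, a comparison chosen, like that of Ash2l with Wdr5, after the counts had been seen. There were 1.64 and 1.66 counts of Ezh2 per count of Eed in the Lenti-GFP samples and 1.97 and 2.11 in the Lenti-AS samples. The groups did not overlap. Groups with no overlap in CPM were found for 54.9% of all genes tested.

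Rbbp4 and Rbbp7 encode close paralogs, histone-binding subunits of PRC2 and of other complexes. Rbbp7 had 776 and 800 CPM in Lenti-GFP and 845 and 802 CPM in Lenti-AS, so that Lenti-AS 2 was just above the higher control. Its log2 fold change was 0.064 (95% interval -0.072 to 0.20, adjusted p = 0.534). Rbbp4 had 35.6 and 38.2 CPM in Lenti-GFP and 40.0 and 35.9 CPM in Lenti-AS, with overlapping groups and a log2 fold change of 0.039 (95% interval -0.16 to 0.24, adjusted p = 0.815). Its sign turned without Lenti-GFP 1 and without Lenti-AS 1. There were 21.8 and 20.9 counts of Rbbp7 per count of Rbbp4 in the Lenti-GFP samples and 21.2 and 22.4 in the Lenti-AS samples. RefSeq lists 4 pseudogenes of Rbbp4 and 1 of Rbbp7, and how reads with several matches were counted is not given in the sources used here, so the counts of both, and the ratio between them, are uncertain.

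Wdr5 encodes the propeller protein that joins MLL enzymes to their core. Its level was 30.6 and 24.6 CPM in Lenti-GFP and 23.8 and 27.5 CPM in Lenti-AS. The Lenti-GFP samples were 6.10 CPM apart, the Lenti-AS samples 3.65 CPM, and the groups overlapped. Among the 7 genes Wdr5 had the widest interval (log2 fold change -0.11, 95% interval -0.42 to 0.20, adjusted p = 0.657 by edgeR's quasi-likelihood test). Without Lenti-GFP 1 the log2 fold change was 0.066, and without Lenti-GFP 2 it was -0.26. A related intronless gene, Wdr5b, had a fitted log2 fold change of -0.21 (adjusted p = 0.237), with 1.66 to 2.25 counts of Wdr5 per count of Wdr5b in the 4 samples.

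Ash2l, whose product pairs with RBBP5 and activates the methyltransferase, had 131 and 126 CPM in Lenti-GFP and 117 and 123 CPM in Lenti-AS. The Lenti-AS samples were below both controls by 2.59 CPM, less than the 5.33 and 6.17 CPM within the groups. The log2 fold change was -0.097 (95% interval -0.24 to 0.048, adjusted p = 0.383), and it remained below 0 in every fit. Of the 7 genes, Eed and Ash2l had both Lenti-AS samples below the controls and Rbbp7 had both above, where 27.2% and 27.7% of all genes tested did so. The interval plot of the 7 genes shows these differences on the log2 scale.

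**Figure D2:**
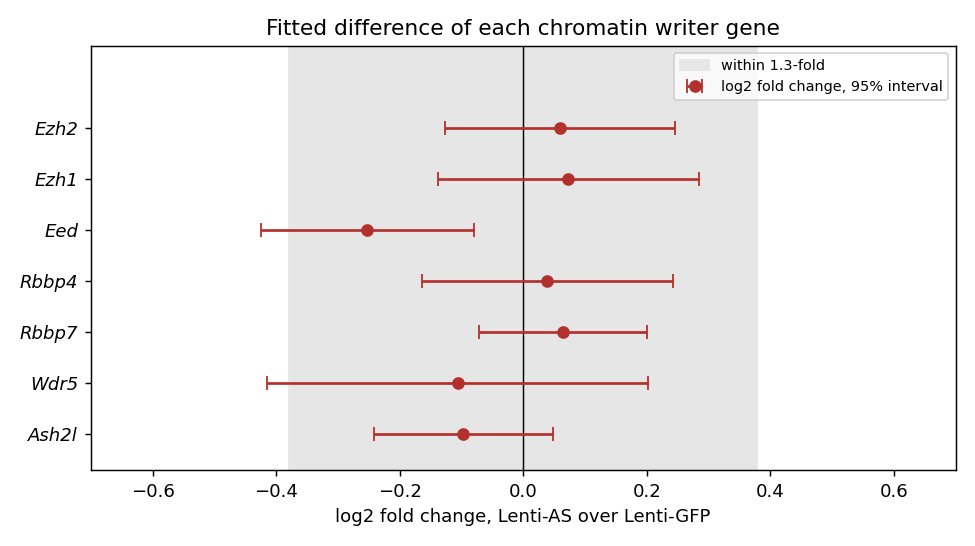
Fitted log2 fold change of Lenti-AS over Lenti-GFP (x axis) for each of the 7 writer genes (y axis); bars are 95% intervals from edgeR's quasi-likelihood fit and the grey band is a change within 1.3-fold. The interval of Eed lies wholly below 0 (-0.42 to -0.080), and those of Eed and Wdr5 reach below the band.

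**Figure D3:**
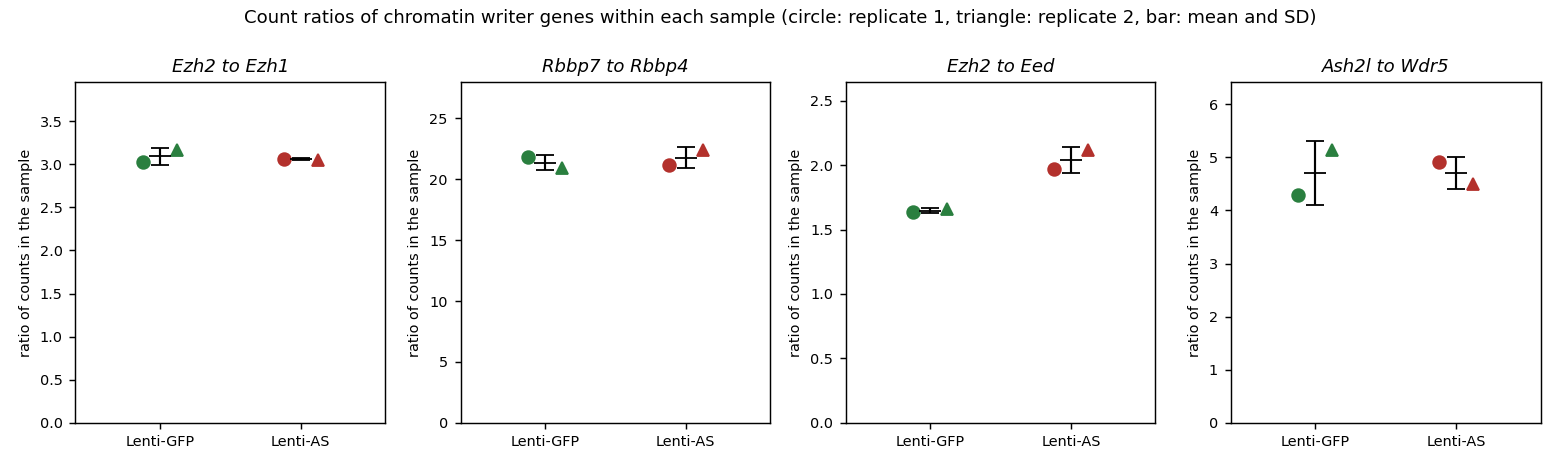
Ratio of the counts of a pair of writer genes within each sample (y axis from 0, no unit), by group; circles are replicate 1, triangles replicate 2, and black lines and bars the mean and SD (n = 2). Ezh2 to Ezh1 stays between 3.02 and 3.16 and Rbbp7 to Rbbp4 between 20.9 and 22.4 in all samples, Ash2l to Wdr5 varies between 4.28 and 5.13 with overlapping groups, and Ezh2 to Eed is 1.64 and 1.66 in Lenti-GFP and 1.97 and 2.11 in Lenti-AS.

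The pattern of a gene over the 4 samples was also compared with all others, by the root mean square difference of log2 CPM after centring each gene on its mean. Slc27a4, Dhx30 and Ikbkb were nearest to Ezh2 (0.0084 to 0.0095 log2 units), but 702 genes lay within 0.05 of it, so its near-level profile was common. Nearest to Wdr5 were Clhc1, Thumpd3-as1 and Trpm4 (0.014 to 0.019), with 47 genes within 0.05.

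The other genes of the writer, reader and eraser complexes were taken from 7 lists, of which 104 genes were listed, 77 had a row and 76 were tested. edgeR's quasi-likelihood test called 0 of the 76, and limma-voom 0. DESeq2 called 3, Ncoa6, Gatad2b and Chaf1b, and the likelihood ratio test 2, Chaf1b and Phf19, all higher in Lenti-AS. Over all genes tested, DESeq2 called 5.04% and the likelihood ratio test 4.19%. With no adjustment, 15 of the 76 had p below 0.05 and higher values and 5 lower values, where 12.5% and 9.37% of all genes tested were higher and lower.

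Among PRC2 accessory subunits, which steer the complex to its targets, 5 of 8 were tested. Mtf2, a reader of the Polycomb-like family, had 30.3 and 27.7 CPM in Lenti-GFP and 25.6 in both Lenti-AS samples (log2 fold change -0.18, adjusted p = 0.220). Epop had the highest fitted value, 0.89, but 3.38 CPM in Lenti-AS 1 and 0.944 CPM in Lenti-AS 2, the latter below both controls (1.32 and 1.03 CPM). Phf19 had 1.45 and 1.21 CPM in Lenti-GFP and 2.32 and 2.23 CPM in Lenti-AS (0.77, adjusted p = 0.115 by edgeR's quasi-likelihood test). Of the 5 fitted values, 3 were above 0 and 2 below.

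Of the MLL/SET1 complexes, 10 of 17 genes were tested, without Kmt2b, Kmt2c, Kmt2d, Setd1a and Setd1b, so no catalytic subunit of the family was measured here. Rbbp5, which binds ASH2L in the core, had 72.6 CPM in both Lenti-GFP samples and 63.7 and 65.8 CPM in Lenti-AS (log2 fold change -0.17, adjusted p = 0.216). Dpy30, the other core subunit, had 43.5 and 45.2 CPM in Lenti-GFP and 49.0 and 39.6 CPM in Lenti-AS (-0.0017, adjusted p = 0.994). Ncoa6, a coactivator found with MLL3 and MLL4, had 17.4 and 16.0 CPM in Lenti-GFP and 24.4 and 20.8 CPM in Lenti-AS (0.44, adjusted p = 0.0939 by edgeR).

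In PRC1, the complex that ubiquitinates histone H2A, 22 of 24 genes were tested and the median log2 fold change was 0.045. Ring1, for one of its alternative catalytic subunits, had 49.2 and 44.3 CPM in Lenti-GFP and 47.3 and 49.4 CPM in Lenti-AS, with overlapping groups (0.047, adjusted p = 0.763). Rnf2, for the other, had 86.6 and 87.9 CPM in Lenti-GFP and 74.2 and 68.4 CPM in Lenti-AS. Neither Lenti-AS sample reached the controls, with a log2 fold change of -0.29 (95% interval -0.46 to -0.12, adjusted p = 0.0974 by edgeR's quasi-likelihood test). The partners of RBBP4 and RBBP7 in deacetylase and assembly complexes (15 of 23 tested) ran from Hdac2, at 387 and 402 CPM against 325 and 343 CPM (-0.24, adjusted p = 0.0946), to Chaf1b, a subunit of the chromatin assembly factor CAF-1, at 2.29 and 1.43 CPM against 3.90 and 3.34 CPM (0.96, adjusted p = 0.122). Among the partners of WDR5 outside MLL (12 of 14 tested), Mbip had the lowest value, -0.15, and Myc the highest, 0.37, with 15.4 and 14.8 CPM in Lenti-GFP and 23.3 and 15.8 CPM in Lenti-AS.

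The list of erasers of both marks, which also holds the cofactor genes Rcor1, Rcor2 and Rcor3, showed no call in 8 tested genes of 11. Kdm6a had no row, so Kdm6b was the only H3K27 demethylase gene of the list that was tested. Kdm1a, an H3K4 demethylase, had 181 and 189 CPM in Lenti-GFP and 163 and 176 CPM in Lenti-AS (-0.12, adjusted p = 0.304). Kdm6b, which removes H3K27me3, had 33.1 and 29.0 CPM in Lenti-GFP but 64.0 CPM in Lenti-AS 1 and 24.0 CPM in Lenti-AS 2, so its fitted value of 0.50 (95% interval -0.51 to 1.51) rests on Lenti-AS 1. In the deubiquitinase complex PR-DUB, with 4 of 8 genes tested, Bap1 was at -0.0040 and Foxk1 at 1.04, again with 4.16 CPM in Lenti-AS 1 and 1.46 CPM in Lenti-AS 2.

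The Lenti-AS samples differed 2-fold or more from each other for 6 of the 76 partner genes, among them Epop, Kdm6b, Bcorl1 and Foxk1, and all 6 were higher in Lenti-AS 1. Among all genes tested 5.04% differed so much, and 404 of these 627 genes were higher in Lenti-AS 1. Between the Lenti-GFP samples 2.47% of all genes tested differed so much, with 0 of the 76. None of the 7 writer genes differed 2-fold between samples of a group, and the median difference between their Lenti-AS samples was 0.16 on the log2 scale, beside 0.14 over all genes tested.

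Polycomb genes are known to follow cell division, and Ezh2 and Eed are known as E2F targets, so the writers were set beside a list of 24 replication and proliferation genes. Of its 22 tested genes, 12 were called higher in Lenti-AS and 0 lower, where 1.31% of all genes were called higher and 0.667% lower, and the median log2 fold change was 0.42. Mki67 had 198 and 236 CPM in Lenti-GFP and 362 and 359 CPM in Lenti-AS (0.73, adjusted p = 0.0264 by edgeR's quasi-likelihood test). Mcm3, a subunit of the replicative helicase, had 21.9 and 19.4 CPM against 35.0 and 32.0 CPM (0.70, adjusted p = 0.0276), and Rrm2, of ribonucleotide reductase, 33.1 and 33.4 CPM against 52.1 CPM in both Lenti-AS samples (0.65, adjusted p = 0.0192). Top2a also rose, by 0.43 (adjusted p = 0.0276). The smallest value was that of Mcm7, 0.078 (adjusted p = 0.515). The list had 12 calls by limma-voom, against 1.89% of all genes. It had 13 by DESeq2 and by the likelihood ratio test, against 5.04% and 4.19%. With the replicate block the list had 0 calls, but that fit called only 17 of all 12446 genes. So few calls cannot set the list apart from other genes. In the fits without 1 sample all 22 fitted values remained above 0, with medians of the list from 0.389 to 0.439. Calls of the list are not given for those fits, since 1 group then holds 1 sample.

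**Figure D4:**
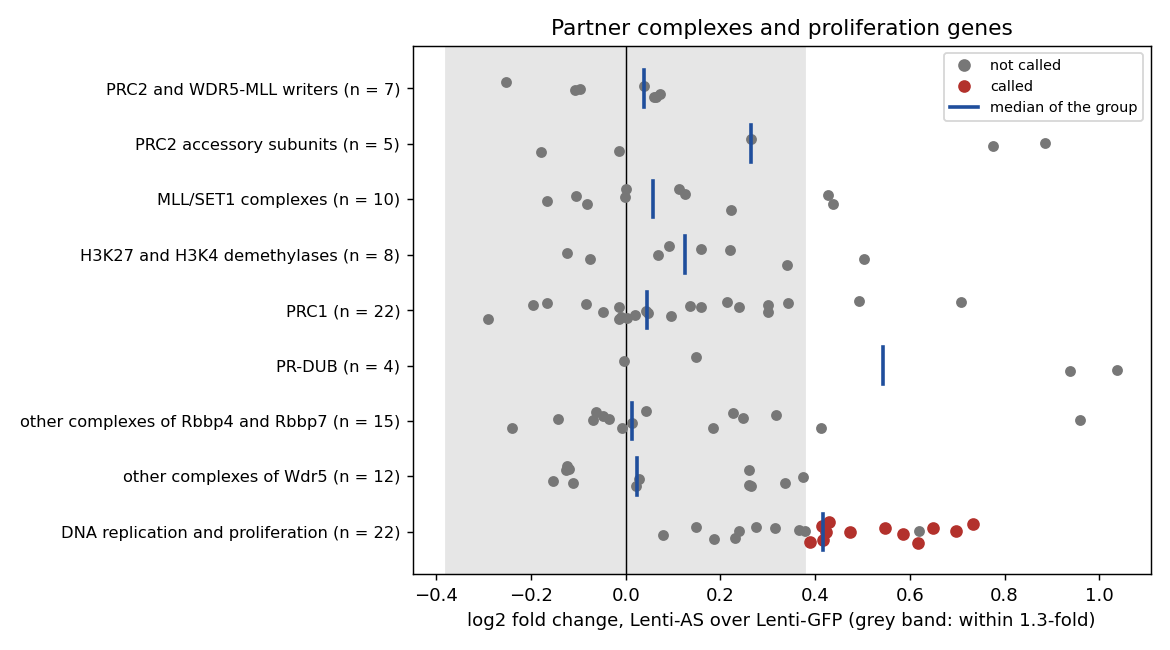
Log2 fold change of Lenti-AS over Lenti-GFP (x axis) for each tested gene of the writers, of their partner complexes and of the proliferation list (y axis, n = genes tested); red points are called genes, the blue line is the median of the list and the grey band a change within 1.3-fold. The 7 writer genes lie inside the band around a median of 0.039, and the proliferation list has 12 red points around a median of 0.42.

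Promoter sequences from RefSeq (GRCr8, not the rn6 build of the counts) were read for 5 of the 7 genes, Ezh2, Eed, Rbbp4, Rbbp7 and Wdr5, over 250 bases before to 50 after the start site. The E2F-type words TTTGGCGC, TTTGCCGC, TTTCGCGC and TTTCCCGC were searched on both strands; some hits overlap one another, since a word can share bases with the reverse complement of the next. At least 1 word was in the window of 1 of the 5 writers, Ezh2, of 9 of 16 tested proliferation genes with an entry and of 4.06% of all 9487 tested genes with an entry (2.37% of all 27457 genes with an entry). Of the 9, 4 were called (Mcm3, Mcm5, Cdk1 and Uhrf1) and 5 were not (Mcm2, Mcm6, Mcm7, Tyms and Dnmt1). For Ezh2, 3 called genes and Mcm7, 1 hit each is shown, to set the word beside fitted log2 fold changes of 0.060 (Ezh2), 0.078 (Mcm7), 0.70 (Mcm3), 0.39 (Mcm5) and 0.42 (Cdk1). The hits are given with the word in capitals, 5′ to 3′ on the gene's strand. They lie at chr4:77687156-77687185 (minus strand) for Ezh2, chr12:22163212-22163241 (minus strand) for Mcm7, chr9:30733734-30733763 (minus strand) for Mcm3, chr19:13488794-13488823 (plus strand) for Mcm5 and chr20:19265149-19265178 (plus strand) for Cdk1.
Ezh2: gggctgctgcgTTTGGCGCtcggtccggtc
Mcm7: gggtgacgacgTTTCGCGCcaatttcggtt
Mcm3: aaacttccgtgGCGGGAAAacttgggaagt
Mcm5: ccaggttggttTTTCCCGCgaaagtcggct
Cdk1: tttccgctcccTTTCGCGCtctgcactccc

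The 250 bases before the start of Eed, the writer with the largest fitted change, and of Ezh2 are shown with each CCAAT or ATTGG, the letters of a CCAAT box on either strand, in capitals. Ezh2 (chr4:77687184-77687433, minus strand) holds 3, beginning 84, 58 and 5 bases before the start, and 63.6% of its bases are G or C. Eed (chr1:153307501-153307750, minus strand) holds 0, with 52.0% G or C. Of all windows of this length, 34.0% hold at least 1. A match is a run of letters and not a tested binding site.
Ezh2: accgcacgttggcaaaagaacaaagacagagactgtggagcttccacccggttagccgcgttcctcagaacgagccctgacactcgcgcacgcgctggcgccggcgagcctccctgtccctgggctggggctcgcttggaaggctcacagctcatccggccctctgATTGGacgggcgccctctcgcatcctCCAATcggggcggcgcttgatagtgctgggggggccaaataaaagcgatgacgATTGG
Eed: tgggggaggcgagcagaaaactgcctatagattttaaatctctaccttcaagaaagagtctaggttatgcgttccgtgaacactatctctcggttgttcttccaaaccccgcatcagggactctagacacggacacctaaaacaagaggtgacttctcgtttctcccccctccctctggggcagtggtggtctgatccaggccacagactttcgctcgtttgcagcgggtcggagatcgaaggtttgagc

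Genes known as Polycomb targets were also listed, with 19 of 22 tested and 0 called by edgeR's quasi-likelihood test. Whether PRC2 controls these genes in the SCs used here was not tested. With no adjustment 3 had p below 0.05, all higher in Lenti-AS, where 12.5% of all genes tested were higher, and the median log2 fold change was 0.11. Shh, which repair SCs are known to express, had 15.0 and 12.4 CPM in Lenti-GFP and 19.7 and 21.9 CPM in Lenti-AS (0.61, 95% interval 0.32 to 0.89, adjusted p = 0.0628). DESeq2 called it and no other gene of the list, with no adjusted p for 9 of the 19, and the likelihood ratio test called Shh and Lhx2, beside 5.04% and 4.19% of all genes tested. The cell cycle inhibitor genes Cdkn2a and Cdkn2b, classical PRC2 targets of the list, named after their values were seen, were at 0.11 and -0.11 (adjusted p = 0.377 and 0.372). Igfbp3 had 3.81 and 3.99 CPM against 3.31 and 2.81 CPM (-0.35, adjusted p = 0.278).

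The promoters at which the study followed the marks of these enzymes are those of Egr2, the regulator of myelination, and Jun, a regulator of the repair state. Egr2 had 49.2 and 42.1 CPM in Lenti-GFP and 61.2 and 54.0 CPM in Lenti-AS, both above the controls (0.33, 95% interval 0.076 to 0.59, unadjusted p = 0.0194, adjusted p = 0.152 by edgeR). The strand setting of the counting is not given in the sources used here, so reads from Egr2 and from any overlapping antisense transcript cannot be told apart. Jun had 1269 and 1139 CPM in Lenti-GFP and 895 and 1084 CPM in Lenti-AS, both below the controls (-0.28, 95% interval -0.54 to -0.027, adjusted p = 0.198). Yy1 encodes a transcription factor followed in the same work. Its levels overlapped between groups, with 82.7 and 77.2 CPM against 70.3 and 87.1 CPM (-0.023, adjusted p = 0.926). None of the 3 was called. The study reported less EGR2 protein and more C-JUN protein with the Egr2-AS, and reduced chromatin accessibility at Egr2. Those are other measures than mRNA, and their directions differ from the fitted directions of Egr2 and Jun here. The reason for the difference was not tested.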

How the data were processed

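RNA-seq of 4 samples was analysed, and groups and replicates were taken from the sample titles and column names. The authors deposited raw counts per gene, made from 50 bp paired-end reads with featureCounts on RefSeq exons of rn6, without normalization. The methods name hisat2 as the aligner and the submitters' processing notes GSNAP. Versions, strand setting and the treatment of reads with several matches are not given in the sources used here. A line repeating the header (1) was dropped. A further 617 rows are suffixed copies of genes, none of them a gene named here.

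Genes reaching 10 counts in 2 or more samples were fitted with edgeR 4.0.16 (R 4.3.3, TMM, glmQLFit, glmQLFTest, no replicate term). Standard errors came from the F statistic and 95% intervals from the total degrees of freedom. The biological coefficient of variation was 12.1%. Alternatives were DESeq2 1.42.0 (no adjusted p for 2413 genes), limma-voom 3.58.1, the likelihood ratio test, other scalings and filters, a replicate block, fits without 1 sample and without erythroid genes. The fit was tested on simulated counts. Samples with the same replicate number showed no shared deviation across genes (correlation of deviations from group means -0.018). That value cannot show whether the samples were prepared in pairs.

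The members, lists and rules were chosen with earlier results of these data known. Named genes are the writers, Egr2, Jun, Yy1, up to 4 called genes of each list and its extremes averaging 100 or more normalized counts. Others (Dpy30, Ring1, Mcm2, Mcm5, Mcm6, Tyms, Dnmt1, Uhrf1, Cdk1, Lhx2, Wdr5b, Phf19, Gatad2b, Cdkn2a, Cdkn2b) were added after their values were seen.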

Additional observations from a re-analysis of the deposited data

How the results depend on the processing

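None of the 7 writer genes was called in any of the alternatives. Eed missed the fold limit alone by DESeq2, without Lenti-AS 1 and without Lenti-AS 2 (adjusted p = 0.0215, 0.0235 and 0.00173). Over all genes, 246 were called by edgeR's quasi-likelihood test, against 627 by DESeq2, 521 by the likelihood ratio test and 17 with the replicate block, and 1 to 1519 without 1 sample. In particular 1 was called without either Lenti-GFP sample, 841 without Lenti-AS 1 and 1519 without Lenti-AS 2. The cause was not tested. Split by direction (163 higher and 83 lower), DESeq2 gave 488 and 139, the likelihood ratio test 374 and 147, and the replicate block 3 and 14. Eed, Ash2l and Rbbp7 kept their sign in all 14 alternatives. The other 4 changed sign when 1 sample was left out, with ranges of -0.020 to 0.16 for Ezh1, -0.030 to 0.14 for Ezh2, -0.041 to 0.11 for Rbbp4 and -0.26 to 0.066 for Wdr5. With a replicate block the log2 fold change of Eed was -0.25 (adjusted p = 0.229). Library totals moved the median of all genes to 0.039. With 2 samples a group, the change of Eed did not pass the adjustment over all genes (unadjusted p = 0.0117, adjusted p = 0.125 by edgeR's quasi-likelihood test).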
